A study of Homo sapiens with 4 samples.

Results

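The ATG8 family is a group of small ubiquitin-like proteins that are attached to the membranes of growing autophagosomes, the vesicles that carry cytoplasmic material to the lysosome in autophagy. Its members were taken by gene symbol from the deposited expression table, which listed 7 of them among 18134 genes: 4 LC3 genes (MAP1LC3A, MAP1LC3B, MAP1LC3B2 and MAP1LC3C) and 3 GABARAP genes (GABARAP, GABARAPL1 and GABARAPL2). Their mRNA was compared between PC9 cells, a human lung adenocarcinoma (LUAD) cell line, that carried shTPX2, a short hairpin RNA against the mitotic spindle factor TPX2, and PC9 cells that carried the negative control hairpin shNC. Both groups came from lentiviral infection with a pLKO.1 vector and antibiotic selection (puromycin, by the resistance of the vector) of stable lines, so the control cells had gone through the same steps. Each group had 2 poly(A)-selected RNA-seq libraries, 4 libraries in all, and the labels do not divide them into batches. The sources used here do not say whether the 2 libraries of a group came from separate cultures, so p-values measure only the spread between them. The question was whether lowering TPX2 changed the amount or the makeup of ATG8 family mRNA.

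As background, every ATG8 protein is made with a tail behind a conserved glycine. A cysteine protease of the ATG4 group removes the tail, and the E1-like enzyme ATG7, the E2-like enzyme ATG3 and the ATG12-ATG5-ATG16L1 complex then join the glycine to phosphatidylethanolamine, which turns the soluble form (LC3-I for LC3) into the membrane-bound form (LC3-II). LC3 proteins are widely used as autophagosome markers, and both subfamilies bind cargo receptors and tethering proteins that carry an LC3-interacting region. This conversion happens to the protein, so mRNA levels do not measure it, nor the flow of material through autophagy.

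The coding ends are shown because the glycine and its tail are what the members are processed on, and because they show how close MAP1LC3B and MAP1LC3B2 are. Each line runs 5′ to 3′ from 9 codons before the conserved glycine to the stop codon, with the glycine codon in capitals (GENCODE v29 transcripts, GRCh38).
MAP1LC3A: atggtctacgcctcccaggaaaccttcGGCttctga
MAP1LC3B: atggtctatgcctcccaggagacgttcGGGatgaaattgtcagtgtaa
MAP1LC3B2: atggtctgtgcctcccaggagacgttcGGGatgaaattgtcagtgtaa
MAP1LC3C: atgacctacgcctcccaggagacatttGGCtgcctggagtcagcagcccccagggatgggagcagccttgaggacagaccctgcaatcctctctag
GABARAP: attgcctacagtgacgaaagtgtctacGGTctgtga
GABARAPL1: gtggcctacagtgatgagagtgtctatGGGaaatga
GABARAPL2: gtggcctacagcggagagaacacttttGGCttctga
The tail behind the glycine had 1 codon before the stop in MAP1LC3A and the 3 GABARAP genes, 5 codons in MAP1LC3B and MAP1LC3B2, and 21 codons in MAP1LC3C. MAP1LC3B and MAP1LC3B2 differed at 2 of 378 coding bases, counted from 1 at the A of the start codon with the MAP1LC3B base first: C30G, which left the residue the same, and A338G, which changed it and lies in the stretch printed above. Translated, the pair was identical at 99.2% of aligned positions. MAP1LC3A and MAP1LC3B shared 79.2%, whereas MAP1LC3C shared 49.0% with MAP1LC3A and 46.3% with MAP1LC3B. Among the GABARAP genes, GABARAP and GABARAPL1 were the closest pair with 86.3%, followed by GABARAPL1 and GABARAPL2 with 60.7%. Identity across the subfamilies ran from 28.8% to 40.5%.

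The 7 genes lie at separate places in GRCh38 (GENCODE v29). MAP1LC3A is at chr20:34546854-34560345 on the plus strand, MAP1LC3B at chr16:87383995-87404779 on the plus strand, MAP1LC3B2 at chr12:116548105-116576448 on the plus strand and MAP1LC3C at chr1:241995490-241999073 on the minus strand. GABARAP is at chr17:7240014-7242770 on the minus strand, GABARAPL1 at chr12:10212458-10223130 on the plus strand and GABARAPL2 at chr16:75566351-75577881 on the plus strand. The transcript used for MAP1LC3B2 had its coding sequence in 1 exon, whereas the coding sequence of the other members was split over 4. Of the windows of 150 bases in the MAP1LC3B2 transcript, 30.9% also occurred in MAP1LC3B, so reads from these 2 genes can be hard to tell apart. In GABARAP, 36.6% of the windows were shared with the annotated gene AC120057.2, and no window was shared for MAP1LC3A, MAP1LC3C, GABARAPL1 and GABARAPL2.

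The 4 libraries had expected-count totals from 20906441 to 21972583. Log2 CPM values (counts scaled to library size after the TMM scaling factors of edgeR) correlated between libraries with r from 0.962 to 0.979 across genes. The closest pair was shNC 1 with shTPX2 1 (0.979), closer than shNC 1 with shNC 2 (0.969). TPX2 itself was listed at 55.01 and 111.85 TPM (a transcript level corrected for transcript length and library size) in shNC 1 and shNC 2, and at 43.35 and 43.77 TPM in shTPX2 1 and shTPX2 2. Both shTPX2 libraries were below both shNC libraries, and shNC 2 was far above the other 3. The edgeR log2 fold change was -0.81 (SE 0.315), with an edgeR adjusted p of 0.618, and it was -0.25 without shNC 2 and -1.22 without shNC 1. By the limma criteria of the study, given below, TPX2 was lower in shTPX2 cells (voom p of limma 0.0592). Without shNC 2 its limma log2 fold change was also -0.25, smaller in size than the 0.3 of those criteria. Of the LUAD markers, EGFR was at 78.4 to 169 TPM, but NKX2-1, NAPSA and SFTPB were all at or below 1.67 TPM in every library, while the 6 epithelial markers were high (at least 141 TPM). All 4 blood cell markers were highest in shNC 2, with sums of 9.18 and 31.2 TPM in shNC 1 and shNC 2 and of 10.6 and 17.1 TPM in the shTPX2 libraries, mostly from CD14, while PTPRC stayed at or below 0.69 TPM and CD3E at or below 0.26 TPM. The 3 fibroblast markers summed to 9.07 and 12.4 TPM in the shNC libraries and to 5.85 and 8.20 TPM in the shTPX2 libraries, with COL3A1 at or below 0.03 TPM. The 3 endothelial markers summed to 19.9 and 32.6 TPM and to 31.1 and 36.5 TPM. Among these, PECAM1 was highest in shNC 2 (14.4 TPM, against 4.20 to 5.92 TPM elsewhere), CDH5 was higher in both shTPX2 libraries (26.7 and 30.5 TPM, against 14.4 and 18.1 TPM) and VWF stayed at or below 0.17 TPM. The part of these genes in the results below was not tested. In bulk libraries, fewer cells of a type and less RNA per cell cannot be told apart.

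GABARAP mRNA was by far the most abundant of the family and did not pass any test. GABARAP, which gives the subfamily its name and was first described as a partner of the GABA-A receptor, was at 736.29 and 657.30 TPM in shNC 1 and shNC 2 and at 685.10 and 731.25 TPM in shTPX2 1 and shTPX2 2. The 2 groups overlapped, and 98.9% of all listed genes had a lower mean TPM. GABARAPL2, also called GATE-16 and known from transport within the Golgi, came next with 139.94 and 139.14 TPM in the shNC libraries and 121.98 and 123.50 TPM in the shTPX2 libraries. Both shTPX2 libraries were lower, with a mean ratio of 0.880 on the TPM scale. On counts scaled with TMM factors its edgeR log2 fold change was only -0.06.

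**Figure D1:**
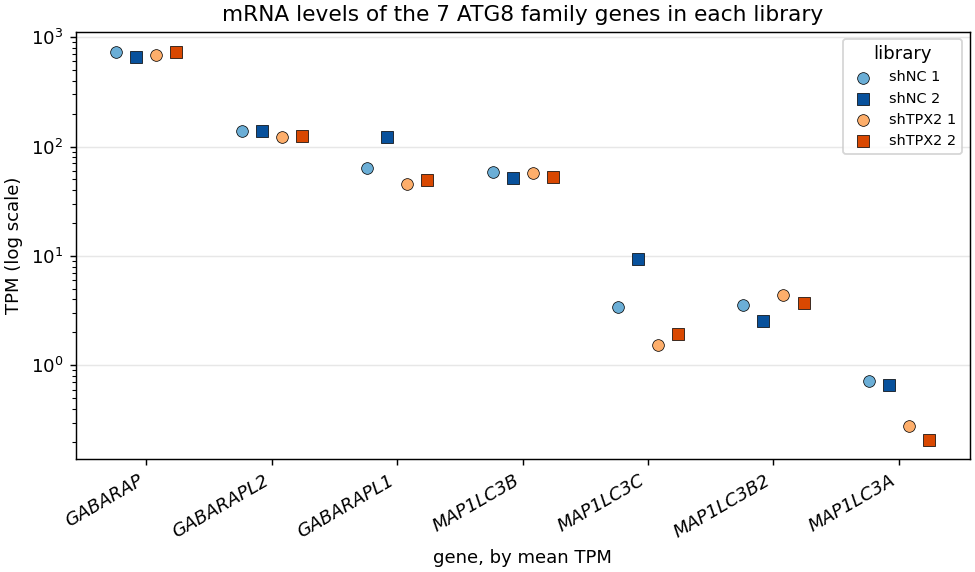
Level of each of the 7 ATG8 family genes in each of the 4 libraries, in TPM on a log axis, with 1 point per library (blue for shNC, orange for shTPX2). GABARAP lies between 657.30 and 736.29 TPM in every library, GABARAPL1 and MAP1LC3C stand highest in shNC 2, and MAP1LC3A lies below 1 TPM throughout.

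GABARAPL1, the member closest in sequence to GABARAP, was lower in the shTPX2 cells by the criteria of the study. It was at 63.36 TPM in shNC 1 and at 123.14 TPM in shNC 2, whereas the shTPX2 libraries had 45.51 and 49.72 TPM. Neither shTPX2 library reached the level of a shNC library, but shNC 1 was closer to the shTPX2 libraries than to shNC 2. The gap of 59.8 TPM between the 2 shNC libraries was larger than the difference of 45.6 TPM between the group means.

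MAP1LC3B, whose protein is the LC3 form most often followed on blots, was the main LC3 mRNA. It was at 58.31 and 52.03 TPM in shNC 1 and shNC 2 and at 57.85 and 52.68 TPM in shTPX2 1 and shTPX2 2. The groups overlapped, and their means of 55.2 ± 4.44 and 55.3 ± 3.66 TPM (SD, n = 2 each) lay within the spread of either. MAP1LC3B2, its near copy, was at 3.60 and 2.52 TPM in the shNC libraries and at 4.38 and 3.73 TPM in the shTPX2 libraries, so both shTPX2 libraries were above both shNC libraries.

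MAP1LC3C, the LC3 gene with the long tail, was listed at 3.45 and 9.47 TPM in shNC 1 and shNC 2, and at 1.53 and 1.94 TPM in the shTPX2 libraries. The shTPX2 libraries were both below the shNC libraries, and shNC 2 was again far above shNC 1. MAP1LC3A was the least abundant, with 0.72 and 0.66 TPM in the shNC libraries and 0.28 and 0.21 TPM in the shTPX2 libraries. These levels rest on rounded totals of 14 counts in the shNC group and 5 in the shTPX2 group, a ratio per library size of 0.358 with an exact 95% interval of 0.101 to 1.05 that covers counting error only and includes 1. MAP1LC3A did not pass the filter on low counts and has no value in the tests below.

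The order of the levels was the same at both ends in all 4 libraries, with GABARAP first, GABARAPL2 next and MAP1LC3A last. Its middle changed between libraries. GABARAPL1 ranked above MAP1LC3B in both shNC libraries, with a TPM ratio of 1.09 and 2.37, and below it in both shTPX2 libraries, with a ratio of 0.787 and 0.944. In shNC 2, GABARAPL1 came near GABARAPL2 (ratio 0.885), whereas in the other 3 libraries the ratio was between 0.373 and 0.453. MAP1LC3C ranked above MAP1LC3B2 only in shNC 2, and in shNC 1 their levels of 3.45 and 3.60 TPM were close. Only these 2 pairs of neighbours changed places between libraries.

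The split between the LC3 and GABARAP subfamilies was close between the groups, whereas the shares of most single members did not overlap between them. Summed over the 7 members, family mRNA came to 1005.67 and 984.26 TPM in the shNC libraries and to 916.63 and 963.03 TPM in the shTPX2 libraries. The means were 995 ± 15.1 and 940 ± 32.8 TPM (SD, n = 2 each), a log2 ratio of -0.08. The groups did not overlap, but the exact two-sided permutation test gave p = 0.333, the smallest that 2 against 2 libraries allow. On the TPM scale, 30.3% of all tested genes also lay entirely below in shTPX2, and 10.7% entirely above. As a percent of all expected counts, the family had a log2 ratio of -0.08. Under the same scaling by library size only, the median edgeR log2 fold change of all tested genes was also -0.08. A drop of this size in counts was therefore not particular to the family, and the median TPM ratio of all genes was not computed. With TMM factors that median was -0.01, and the most abundant members, GABARAP and GABARAPL2, had edgeR log2 fold changes of 0.15 and -0.06. LC3 genes together held 6.57% and 6.57% of family TPM in the shNC libraries and 6.99% and 6.08% in the shTPX2 libraries. That share overlapped between the groups (exact permutation p = 1), and its mean difference was -0.037 percentage points.

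GABARAP alone held 73.2% and 66.8% of family TPM in shNC 1 and shNC 2 and 74.7% and 75.9% in shTPX2 1 and shTPX2 2. Its mean share was 5.34 percentage points higher in the shTPX2 group. GABARAPL1 held 6.30% and 12.5% in the shNC libraries and 4.96% and 5.16% in the shTPX2 libraries, a mean share 4.34 percentage points lower. Where GABARAPL1 took its largest share, in shNC 2, GABARAP took its smallest. GABARAPL2 varied little, with 13.9%, 14.1%, 13.3% and 12.8% in the same order, and so did MAP1LC3B with 5.80%, 5.29%, 6.31% and 5.47%. MAP1LC3A, MAP1LC3B2 and MAP1LC3C each held 0.962% or less. The mean share of MAP1LC3C in the shTPX2 group was 0.282 of that in the shNC group, and the mean share of MAP1LC3A was 0.378 of it. The shares of GABARAP, GABARAPL1, GABARAPL2, MAP1LC3A, MAP1LC3B2 and MAP1LC3C did not overlap between the groups, each with the smallest exact permutation p that the design allows (0.333). Shares in a library add up to the whole family, so a smaller share of 1 member enlarges the others, and these are not separate results. In TPM, GABARAP itself overlapped between the groups. How often shares within other sets of genes do not overlap was not computed. Without GABARAP, the rest of the family summed to 269.38 and 326.96 TPM in the shNC libraries and to 231.53 and 231.78 TPM in the shTPX2 libraries.

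No member passed the quasi-likelihood test of edgeR at an adjusted p under 0.05, nor did any of the 14048 genes tested (0% called, lowest edgeR adjusted p 0.109). At an unadjusted p under 0.05, edgeR picked 2 of the 6 tested members, MAP1LC3C and GABARAPL1, against 8.03% of all tested genes. At the same adjusted threshold DESeq2 picked 33 higher genes and 78 lower ones, none of them a member. By the criteria of the study (limma after voom, with an unadjusted p no higher than 0.1 and a log2 fold change no smaller than 0.3 in either direction), the same 2 members were lower in shTPX2 cells, against 7.99% of all genes, and none was higher, against 6.24%. On the TPM scale, both shTPX2 libraries were below both shNC libraries for MAP1LC3A, MAP1LC3C, GABARAPL1 and GABARAPL2, and above them for MAP1LC3B2. Among all tested genes 30.3% lay entirely below and 10.7% entirely above, so a lower TPM in both shTPX2 libraries was common.

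For GABARAPL1 the edgeR log2 fold change was -0.84 (SE 0.301, 95% confidence interval -1.56 to -0.11), with an unadjusted p of 0.0302 and an adjusted p of 0.597. The voom p of limma was 0.0473, and the adjusted p of DESeq2 was 0.369. The size rested on shNC 2, since the log2 fold change was -0.31 without shNC 2, where the limma call was lost, and -1.22 without shNC 1. Leaving out a shTPX2 library gave -0.80 and -0.87.

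For MAP1LC3C the edgeR log2 fold change was -1.86 (SE 0.566, interval -3.22 to -0.49), with an unadjusted p of 0.0153 and an adjusted p of 0.579. The voom p of limma was 0.0282, and the adjusted p of DESeq2 was 0.242. It was -1.01 without shNC 2, where the limma call stayed, and -2.39 without shNC 1. Leaving out a shTPX2 library gave -1.70 and -2.03. The expected counts behind it were 49.26, 131.09, 21.46 and 26.28.

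The other 4 tested members did not pass any of these tests. MAP1LC3B2 had the widest interval, with a log2 fold change of 0.56 (interval -0.50 to 1.63) on expected counts of 29.46, 20.46, 37.78 and 30.84. MAP1LC3B had 0.13 (interval -0.29 to 0.54), GABARAP 0.15 (interval -0.28 to 0.57) and GABARAPL2 -0.06 (interval -0.43 to 0.31), all from edgeR on the log2 scale. The intervals of these last 3 genes all lay between -0.43 and 0.57.

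**Figure D2:**
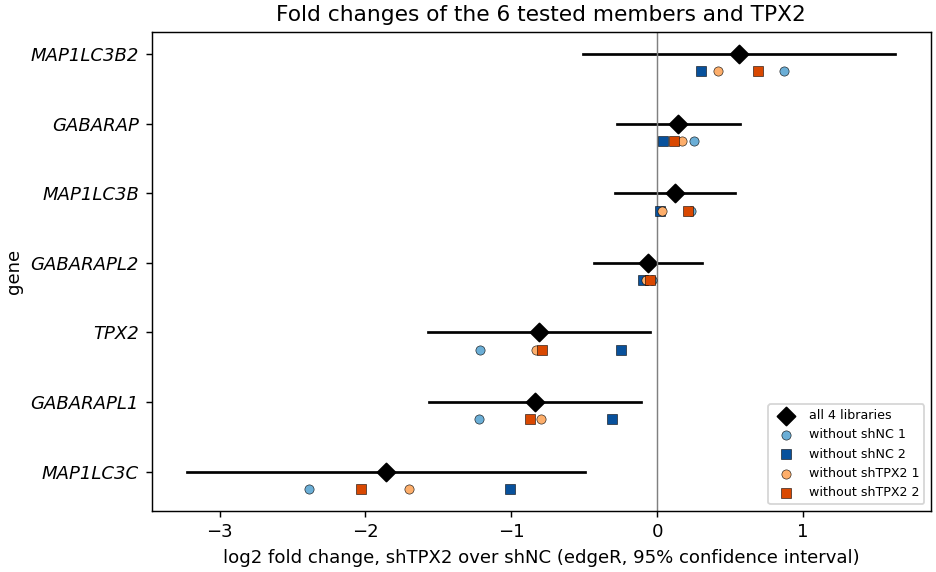
Log2 fold change (shTPX2 over shNC, edgeR) of the 6 tested members and of TPX2, with the black diamond and bar for all 4 libraries and the 95% confidence interval and the small points for the value with 1 library left out. Without shNC 2 (dark blue square) GABARAPL1 moves from -0.84 to -0.31, MAP1LC3C from -1.86 to -1.01 and TPX2 from -0.81 to -0.25.

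The counts of MAP1LC3B and MAP1LC3B2 were not whole in any library, but in each library they added up to a whole number within 0.011, at 1420, 1250, 1491 and 1299. No other single gene of the table did so with either of them. Counts add up in this way where reads are divided between 2 genes, and MAP1LC3B2 was given 2.07%, 1.64%, 2.53% and 2.37% of the pair. Summed as 1 gene, the pair had an edgeR log2 fold change of 0.13, the same as MAP1LC3B alone, while the level of MAP1LC3B2 on its own is uncertain. MAP1LC3C also had counts that were not whole in all 4 libraries, with no single gene that made up the sum, and GABARAP, GABARAPL1 and GABARAPL2 had whole counts throughout.

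Genes whose pattern over the 4 libraries was most like that of a member were looked up by the Euclidean distance of log2 CPM, centred on each gene's mean, among 14047 other tested genes. The nearest to GABARAP were HARS2 (distance 0.0186), HNRNPA3 (0.0201) and NPRL3 (0.0203). The nearest to MAP1LC3C, the member with the smallest edgeR p, were PRR16 (0.202), GPC4 (0.207) and CPE (0.217). GPC4, a cell-surface proteoglycan, was at 2.80 and 8.16 TPM in the shNC libraries and at 1.10 and 1.70 TPM in the shTPX2 libraries, so it shared with MAP1LC3C the high value in shNC 2. With 4 points per gene this likeness is a description of these libraries.

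The promoters of the 2 members that met the criteria of the study are shown, from 250 bases before to 50 bases after the transcription start (RefSeq, GRCh38.p14), with a cAMP response element (CRE) in capitals where one was found. The GABARAPL1 window is chr12:10212627-10212926 on the plus strand and the MAP1LC3C window is chr1:241999049-241999348 on the minus strand.
GABARAPL1: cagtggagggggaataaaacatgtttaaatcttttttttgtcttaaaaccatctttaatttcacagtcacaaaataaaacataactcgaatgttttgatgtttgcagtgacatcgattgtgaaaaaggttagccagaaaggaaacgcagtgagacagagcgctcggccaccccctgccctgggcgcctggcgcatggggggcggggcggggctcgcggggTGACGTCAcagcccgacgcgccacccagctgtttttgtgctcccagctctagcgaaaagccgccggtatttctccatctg
MAP1LC3C: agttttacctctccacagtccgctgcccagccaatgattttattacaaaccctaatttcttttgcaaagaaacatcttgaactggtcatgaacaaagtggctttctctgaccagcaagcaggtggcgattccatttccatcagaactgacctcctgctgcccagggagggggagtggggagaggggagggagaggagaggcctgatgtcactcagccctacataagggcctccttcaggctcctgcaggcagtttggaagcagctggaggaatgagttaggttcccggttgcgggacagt
Of 7 members, 6 had a promoter in the RefSeq table. The CRE letters TGACGTCA, read on both strands, occurred only in the window of GABARAPL1, starting 30 bases before this RefSeq start, and in 1.85% of 35116 promoters of the same length. The E-box CACGTG, known as a core of the sites bound by TFEB and TFE3, and the FOXO letters GTAAACA occurred in 0 of the 6, against 7.26% and 3.42% of all promoters. These matches say only which letters stand in the windows. The RefSeq starts differ from the ends of the GENCODE genes given above, and the windows of MAP1LC3B, MAP1LC3B2, GABARAP and GABARAPL1 lie within those genes. Windows at other starts were not searched.

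Genes that process the ATG8 proteins were followed as a list of 11, all of them tested. By the limma criteria 1 was higher and 1 was lower, which is 18.2% of the list against 14.2% of all tested genes (6.24% higher, 7.99% lower). Their median edgeR log2 fold change was -0.05, and that of all tested genes was -0.01. ATG7, the E1-like enzyme that activates every ATG8 protein, was higher at 31.65, 37.11, 46.05 and 38.80 TPM in shNC 1, shNC 2, shTPX2 1 and shTPX2 2, with an edgeR log2 fold change of 0.44 (SE 0.171) and an edgeR adjusted p of 0.617. ATG5, part of the E3-like complex, was lower at 34.49, 40.15, 29.16 and 23.20 TPM, with -0.49 (SE 0.204) and an edgeR adjusted p of 0.621. Neither gene overlapped between the groups, as 10.7% of all tested genes did not on the higher side and 30.3% on the lower side. The ATG7 call was lost without shNC 1 or without shTPX2 1, and the ATG5 call without shNC 2 or without shTPX2 2, which left 1 gene called except without shNC 1, where ATG16L2 was called lower beside ATG5.

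The 4 proteases that cut the tails, ATG4A to ATG4D, did not pass, with edgeR log2 fold changes of -0.13, -0.01, -0.04 and -0.21. ATG4B, the protease with the broadest action on the family, was the most abundant of them at 66.1 to 76.8 TPM. The E2-like enzymes ATG3 (for ATG8) and ATG10 (for ATG12) had 0.25 and -0.22. ATG12, the ubiquitin-like partner of ATG5, had 0.22, and ATG16L1, which places the complex on membranes, had -0.05, and its paralog ATG16L2 had -0.53. ATG16L2 was the most variable of these, at 8.44 and 17.72 TPM in the shNC libraries and 6.36 and 9.65 TPM in the shTPX2 libraries, and it met the limma criteria as lower only without shNC 1 and with the replicate number as a block, among the settings tried.

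The LC3 genes owe their name to a light chain found with the microtubule-associated proteins MAP1A and MAP1B, so these heavy chain genes and MAP1S were looked at as well. MAP1B, which stabilises microtubules, was lower by the limma criteria, at 30.66, 46.08, 25.70 and 11.96 TPM and an edgeR log2 fold change of -0.89 (SE 0.390, adjusted p = 0.647). Its call was lost without shNC 2 and without shTPX2 2. MAP1S, which also binds LC3, had -0.21, and MAP1A, at or below 0.17 TPM in every library, had 0.03.

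**Figure D3:**
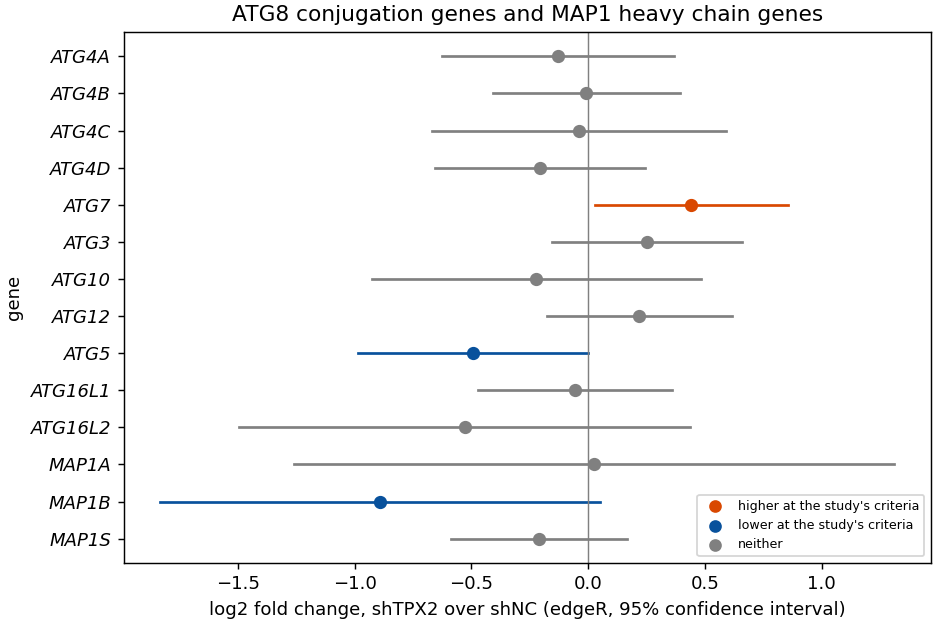
Log2 fold change (shTPX2 over shNC, edgeR) of the 11 conjugation genes and the 3 MAP1 heavy chain genes, with the 95% confidence interval as a bar and the colour giving the limma call. ATG7 (0.44) is the gene called higher, ATG5 (-0.49) and MAP1B (-0.89) are those called lower, and every interval but those of ATG7 and ATG5 includes 0.

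Among 28 genes for proteins that bind the ATG8 family, all tested, 1 was higher and 2 were lower by the limma criteria, 10.7% of the list against 14.2% of all tested genes. The median edgeR log2 fold change of the list was -0.12. RETREG1, a receptor for the autophagy of the endoplasmic reticulum, was at 5.56 and 5.57 TPM in the shNC libraries and at 2.40 and 2.25 TPM in the shTPX2 libraries, so the groups stood clearly apart. Its edgeR log2 fold change was -1.14 (SE 0.291), with an edgeR adjusted p of 0.579, and its limma call stayed with any 1 library left out. JMY, a regulator of actin filaments that has an LC3-interacting region, was lower at 6.72, 9.07, 4.83 and 4.47 TPM (log2 fold change -0.64). SQSTM1, the cargo receptor p62, met the criteria as higher (log2 fold change 0.83), but its groups overlapped at 1274.44, 569.27, 1152.00 and 1865.47 TPM. SQSTM1 lost its call without shNC 2 and without shTPX2 2, and JMY without shTPX2 2, where RETREG1 was the 1 gene left.

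Of 10 transcription factors known to act on autophagy genes, all tested, 1 was higher and 0 were lower by the limma criteria, against 6.24% and 7.99% of all tested genes, with a median log2 fold change of -0.03. E2F1, a cell cycle regulator, was the one called, at 19.36, 24.61, 34.96 and 28.86 TPM and an edgeR log2 fold change of 0.67 (SE 0.204, adjusted p = 0.579). Its call was lost without shTPX2 1. TFEB and TFE3, main activators of lysosomal and autophagy genes, had -0.03 each, and FOXO3 had -0.39 and was called lower without shNC 2. ATF4, the effector of the integrated stress response, was at 1144.08 and 578.11 TPM in the shNC libraries and 958.90 and 886.90 TPM in the shTPX2 libraries, and was called higher without shNC 1.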

How the data were processed

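Poly(A)-selected RNA of PC9 cells with shNC (2 libraries) or shTPX2 (2 libraries) was sequenced, and the labels do not divide the libraries into batches. The study's methods name SOAPnuke, HISAT2/Bowtie2 and RSEM or StringTie, whereas the submitters' processing notes name HISAT2, featureCounts, DESeq2 and GRCh38. Expected counts were quantified by the authors from aligned reads, with no scaling for depth, and deposited for each library. They were fractional for 42.2% to 44.6% of genes per library, and were rounded before testing. The deposited TPM and FPKM values were scaled by the authors for transcript length and library size, and TPM was used for levels and shares. The authors' average columns were not the mean of the 2 libraries for 92.2% (shNC) and 93.1% (shTPX2) of genes (tolerance 0.01 TPM) and entered no comparison.

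edgeR 4.0.16 (filterByExpr, TMM, quasi-likelihood test, Benjamini-Hochberg over 14048 genes) in R 4.3.3 was the main test. limma 3.58.1 with voom applied the criteria of the study, and DESeq2 1.42.0 was an alternative. The common dispersion was 0.0485, so the spread between libraries limited precision more than counting error did for MAP1LC3B, GABARAP, GABARAPL1 and GABARAPL2. For MAP1LC3B2 and MAP1LC3C, with expected counts down to 20.46 and 21.46, counting error was of similar size to this dispersion in the lowest libraries. Single values were compared by exact permutation over libraries. Coding ends were read from GENCODE v29 and translated with Biopython 1.88, and promoters came from RefSeq (GRCh38.p14). Tests were checked on simulated counts. Alternatives were other scaling, filters, a replicate block, summed near copies and leaving out each library. The members and lists were chosen with earlier results of these data known. Named genes were the members, TPX2, the conjugation and heavy chain lists, called genes of the other lists and the 3 nearest patterns of 2 members. FOXO3, ATF4, TFEB, TFE3, CD14, PECAM1, CDH5 and the motifs were named after their values were seen.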

Additional observations from a re-analysis of the deposited data

Results flagged for a closer look

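The authors' average TPM for shTPX2 lay outside the values of the 2 shTPX2 libraries for all 7 members and for TPX2, and it is not known which libraries these averages cover. For MAP1LC3A the authors' average was 3.80 TPM for shTPX2 and 2.95 TPM for the control, whereas the 4 libraries were listed at 0.72 TPM or less. For MAP1LC3B the authors' average was 87.03 TPM for shTPX2 and 66.4 TPM for the control, whereas the 4 libraries lay between 52.03 and 58.31 TPM. For GABARAPL1 the authors' average was 27.3 TPM for shTPX2 and 64.4 TPM for the control, and for MAP1LC3C it was 1.46 TPM and 4.53 TPM. These averages have no SD or n, and their difference between the groups was not tested.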

How the results depend on the processing

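Of 142 values under other settings, 127 kept their direction and side of the threshold (counts within 1.5 times), 13 moved and 2 reversed, and all 61 values for single members kept their direction. For single genes the threshold was an adjusted p under 0.05, which no gene passed in the main edgeR test, so keeping that side says little. A list count could also stay the same where the called genes changed. The LC3 share of the family (-0.037 percentage points) was 0.712 with CPM in place of TPM, which does not divide by length, and ran from -0.490 to 0.415 with 1 library left out, turning positive without shTPX2 2. With 1 library left out, the log2 ratio of summed family TPM ran from -0.118 to -0.047, the log2 fold change of TPX2 from -1.22 to -0.25, the number of members called by limma from 1 (without shNC 2) to 2, the conjugation list from 1 to 2, the partner list from 1 to 4, the transcription factor list from 0 to 2 and the heavy chain list from 0 to 1. The lone library of a group was then assumed to vary like the other group. Scaling by library size only moved the median of all genes to -0.08 and their limma calls from 876 higher and 1122 lower to 578 higher and 1445 lower, and gave 6 partner genes (TAX1BP1, EPG5 and RB1CC1 added as lower) and 2 transcription factors. With no filter on low counts, 3 members were called lower, with MAP1LC3A added at a log2 fold change of -1.40. With 1 library left out, the list medians ran from -0.24 to 0.07 (conjugation), -0.22 to -0.03 (partners), -0.23 to 0.10 (transcription factors) and -0.33 to -0.18 (heavy chains), turning positive for the conjugation genes without shNC 2 and for the transcription factors without shNC 1.

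The labels number the libraries 1 and 2 in both groups without saying that a number marks a shared origin, and the deviations of same-numbered libraries correlated at 0.173, so the numbers were not taken to pair them. With the replicate number as a block, the log2 fold changes were -0.77 for GABARAPL1, -1.73 for MAP1LC3C and -0.73 for TPX2, the limma calls of the members were the same 2, the conjugation list had 3 calls in place of 2 (ATG16L2 added as lower) and the transcription factors 2 in place of 1 (FOXO3 added as lower).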

Other observations

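GABARAPL1 followed the targeted gene closely over the 4 libraries, a pair chosen after its values were seen. The distance between their centred log2 CPM was 0.0981, which ranked GABARAPL1 number 8 of 14047 genes by nearness to TPX2. The TPM ratio of GABARAPL1 to TPX2 was 1.15, 1.10, 1.05 and 1.14 in shNC 1, shNC 2, shTPX2 1 and shTPX2 2. For the other 5 tested members the distance to TPX2 ran from 0.985 to 1.70. This distance also counts the size of the changes. MAP1LC3C, likewise highest in shNC 2 and lower in both shTPX2 libraries, was at 1.03, number 6047 by nearness to TPX2. Among the genes nearest to MAP1LC3C, TPX2 was number 356 of 14047. With 4 libraries, of which shNC 2 was the highest for TPX2, GABARAPL1 and MAP1LC3C, these likenesses only describe these libraries.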
